A study of Homo sapiens with 6 samples.

Results

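A set of 9 genes for enzymes of chondroitin sulfate synthesis was examined, CHPF, CHPF2, CHSY1, CHSY3, CSGALNACT1, CSGALNACT2, XYLT1, XYLT2 and B3GAT3. They were taken by gene name, which found all 9 among the 20660 gene names of the table, with 29 of its 82428 coding sequences. CHPF was selected on its measured values, the fold and q-value of one coding sequence in this same comparison, and the other genes were added because they act beside it, so every value of BB608 against DMSO below is a description and not an independent test of these enzymes. The cells were FaDu, an established human line derived from a hypopharyngeal squamous carcinoma, which the labels class as HNSCC, cancer of the head and neck. One group of 3 libraries came from cells given BB608, a compound known here only by this code name, and the other group of 3 from cells given its vehicle DMSO. No source used here gives the dose or the treatment time. Total RNA was sequenced after removal of ribosomal RNA, and the libraries of each group are described as biological replicates of one cell line.

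Chondroitin sulfate is a long sulfated sugar chain carried by proteoglycans at the cell surface and in the matrix. Its synthesis in the Golgi starts when the xylosyltransferases XYLT1 or XYLT2 put xylose on a serine of a core protein. Galactosyltransferases and the glucuronyltransferase B3GAT3 complete a short linker, which heparan sulfate shares. CSGALNACT1 or CSGALNACT2 then adds N-acetylgalactosamine, the step that commits the chain to chondroitin. The bifunctional synthases CHSY1 and CHSY3 extend it with alternating sugars, and CHPF and CHPF2 are related proteins that act in complexes with these synthases.

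Values are FPKM, fragments scaled by transcript length and by the number of mapped fragments, so levels can be set beside each other between genes. The table holds one pooled value per group and coding sequence, and its column names call each group a subset, so whether a value covers all 3 libraries or all their reads is not known. It gives no value per library, no depth and no spread between replicates. Reads of a gene are divided by the software among its overlapping coding sequences, and this division is uncertain, so a gene sum, the total of a gene's coding sequences, is given beside single coding sequences. A coding sequence is called here where the q-value of Cuffdiff, the authors' testing program, was under 0.05. The error printed with a log2 fold is an implied SE, the fold divided by the authors' test statistic and by the ratio that links that statistic to their p-values. It covers only the spread the authors' model estimated.

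CHPF was the one enzyme with a called change. Its main coding sequence, P50616, was at 4.38 FPKM in BB608 cells and 1.87 FPKM in DMSO cells. The authors' deposited table gives it a log2 fold of 1.23 (implied SE 0.24), a q of 0.0154 and a Cuffdiff p of 5e-05. That p is the floor of the deposited p-values. Other called sequences share it and the same q, so it does not rank P50616 among them. The other tested CHPF coding sequence, P50618, was at 0.723 FPKM in BB608 cells and 0.675 FPKM in DMSO cells. Its log2 fold was 0.10 (implied SE 0.68) with a Cuffdiff q-value of 0.997 in the authors' deposited table. A further sequence, P50617, was near 0 in both groups and not tested. The gene sum of CHPF was 5.11 FPKM in BB608 cells and 2.54 FPKM in DMSO cells, a 2.01-fold ratio or a log2 fold of 1.01. P50616 made up 85.8% of that sum in BB608 cells and 73.5% in DMSO cells. The difference between the folds of the 2 tested sequences was not tested, since their values come from shared reads. P50616 has a mean below 5 FPKM, and a floor of 5 FPKM on that mean leaves no call among the pathway genes.

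**Figure D1:**
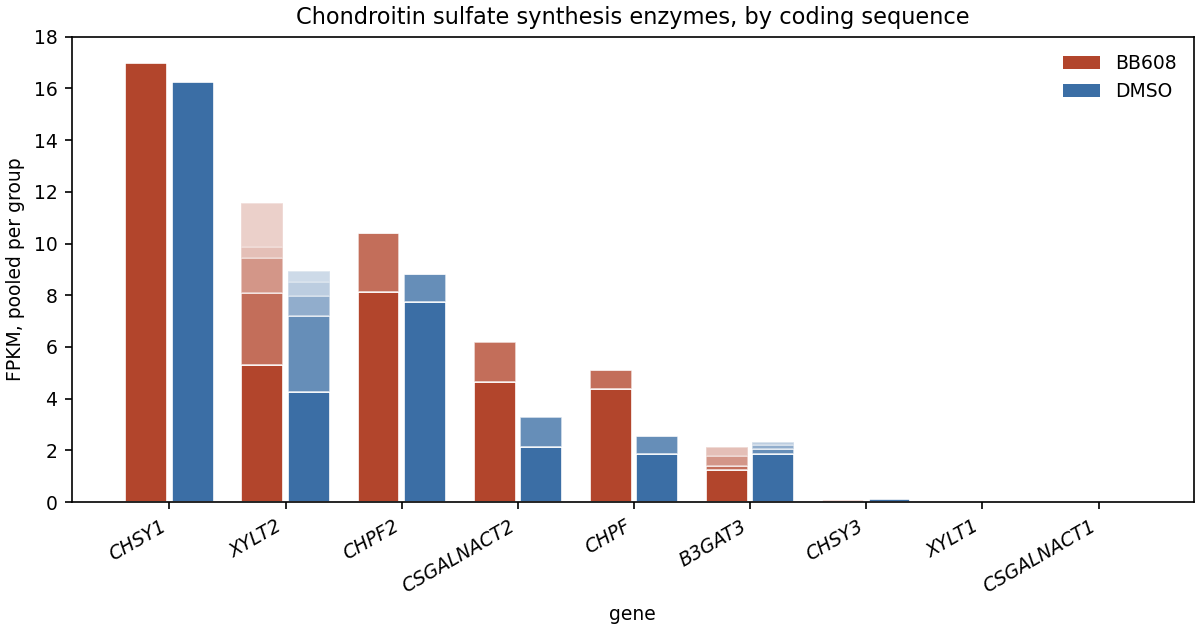
Gene sums in FPKM (bar height) of the 9 enzymes in BB608 cells (red, left) and DMSO cells (blue, right), each bar stacked by coding sequence with the same shade for the same sequence in both groups. CHSY1 is highest at 17.0 FPKM in BB608 cells, CHPF and CSGALNACT2 show the largest ratios between groups, and CHSY3, XYLT1 and CSGALNACT1 are at or near 0.

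The CHPF gene lies on chromosome 2, at a locus the table places at 220403668 to 220415317 of hg19, the build the submitters name. The same interval is given for TMEM198, a membrane protein gene read from the opposite strand. The gene sum of TMEM198 was 0.447 FPKM in BB608 cells and 0.358 FPKM in DMSO cells, with none of its 3 coding sequences tested. The gene beyond it, OBSL1, a cytoskeletal adaptor, had a gene sum of 6.47 FPKM in BB608 cells and 5.63 FPKM in DMSO cells and no call among its coding sequences. The library kit keeps the strand, but no source used here says whether strand was used in counting. TMEM198 and OBSL1 were named after their values were seen.

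The start regions of CHPF are shown because one of its coding sequences was called and because a start inside the gene is annotated. The table does not say which transcript each coding sequence is. The GENCODE release 29 annotation of GRCh38 lists 3 coding transcripts for CHPF, with coding lengths of 2325, 1839 and 894 bases. RefSeq promoter sequences of GRCh38.p14 were found for 8 of the 9 enzymes and give CHPF 2 starts. All 250 bases before the outer start lie in exons of TMEM198, so only the surroundings of a motif are printed. TGACGTCA, the palindromic element bound by factors of the CREB and ATF families, occurs 2 times in those 250 bases. Of 35116 RefSeq starts, searched over 250 bases before each on both strands, 1.65% hold this motif at least once and 0.0541%, or 19 starts, hold it at least 2 times. The motif search was not among the planned results and CHPF was selected on its fold, so nothing is read from these shares. Among the other enzymes with a RefSeq start it was found only before B3GAT3. Capitals mark TGACGTCA, and all 3 windows are on the minus strand, at chr2:219544013-219544042 and chr2:219543968-219543997 for CHPF and chr11:62622194-62622223 for B3GAT3.
CHPF outer start, distal copy: gcctctgctccTGACGTCActcagggcgca
CHPF outer start, proximal copy: cgggctgcttcTGACGTCAcatgggacgca
B3GAT3: cacgccggatgTGACGTCAccacccggtgg
The letters say nothing of whether any factor was bound, and binding was not measured.

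Also shown are the 250 bases before the inner CHPF start, at chr2:219543098-219543347 on the minus strand, and before CSGALNACT2, the enzyme whose gene sum ratio was nearest that of CHPF, at chr10:43138195-43138444 on the plus strand. The inner CHPF stretch lies inside the annotated span of the transcript with 2325 coding bases, chr2:219538947-219543787. Which of its bases are exon or intron was not examined. Capitals mark the GC box GGGCGG, searched on both strands, which 42.6% of the 35116 starts hold. It occurs 1 time before CSGALNACT2, 3 times before the outer CHPF start and at no place in the inner CHPF stretch. Every other enzyme with a RefSeq start has it too, from 1 time before XYLT1 to 4 times before CHSY1.
CHPF inner start: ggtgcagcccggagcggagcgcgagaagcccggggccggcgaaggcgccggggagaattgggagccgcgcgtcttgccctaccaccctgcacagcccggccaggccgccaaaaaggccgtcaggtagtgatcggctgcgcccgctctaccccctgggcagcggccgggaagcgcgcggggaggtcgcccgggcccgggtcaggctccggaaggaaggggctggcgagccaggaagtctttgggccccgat
CSGALNACT2: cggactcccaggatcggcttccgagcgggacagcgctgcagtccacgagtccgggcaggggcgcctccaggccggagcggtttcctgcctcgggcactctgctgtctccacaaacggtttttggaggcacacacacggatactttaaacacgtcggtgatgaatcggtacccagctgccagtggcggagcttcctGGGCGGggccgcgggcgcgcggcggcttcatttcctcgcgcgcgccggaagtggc
Neither stretch holds TGACGTCA.

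CHPF2, a paralog of CHPF, carried no called change. Its main coding sequence, P72270, was at 8.12 FPKM in BB608 cells and 7.73 FPKM in DMSO cells, a log2 fold of 0.07 (implied SE 0.17) in the authors' deposited table. A second sequence, P72271, was at 2.30 FPKM in BB608 cells and 1.09 FPKM in DMSO cells, a log2 fold of 1.08 with an implied SE of 1.07 in that deposited table. The CHPF2 gene sum was 10.4 FPKM in BB608 cells and 8.81 FPKM in DMSO cells, a log2 fold of 0.24 that becomes 0.07 when the main sequence alone is taken. The CHPF gene sum was 49.0% of that of CHPF2 in BB608 cells and 28.8% in DMSO cells.

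CHSY1 was the most abundant of the enzymes and had the smallest implied SE. Its single coding sequence was at 17.0 FPKM in BB608 cells and 16.3 FPKM in DMSO cells, a log2 fold of 0.06 (implied SE 0.14) with a Cuffdiff p of 0.653 in the authors' deposited table. The paralog CHSY3 was at 0.0705 FPKM in BB608 cells and 0.108 FPKM in DMSO cells and was not tested. Of the polymerizing family, CHSY1, CHSY3, CHPF and CHPF2 together summed to 32.6 FPKM in BB608 cells and 27.7 FPKM in DMSO cells. CHPF made up 15.7% of that total in BB608 cells and 9.17% in DMSO cells. CHSY1 made up 52.1% of the total in BB608 cells and 58.6% in DMSO cells.

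CSGALNACT2 supplied nearly all RNA of the committing N-acetylgalactosaminyltransferases. Its main coding sequence, P7217, was at 4.65 FPKM in BB608 cells and 2.14 FPKM in DMSO cells. The log2 fold of 1.12, close to that of CHPF, came in the authors' deposited table with an implied SE of 0.55, a q of 0.997 and a Cuffdiff p of 0.0627, so it was not called. The second sequence, P7218, was at 1.54 FPKM in BB608 cells and 1.13 FPKM in DMSO cells, a log2 fold of 0.45 (implied SE 0.96) in that deposited table. The gene sum was 6.19 FPKM in BB608 cells and 3.28 FPKM in DMSO cells, a log2 fold of 0.92. CSGALNACT1 had 6 coding sequences, all below 0.001 FPKM in both groups, and no fold is given for it.

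**Figure D2:**
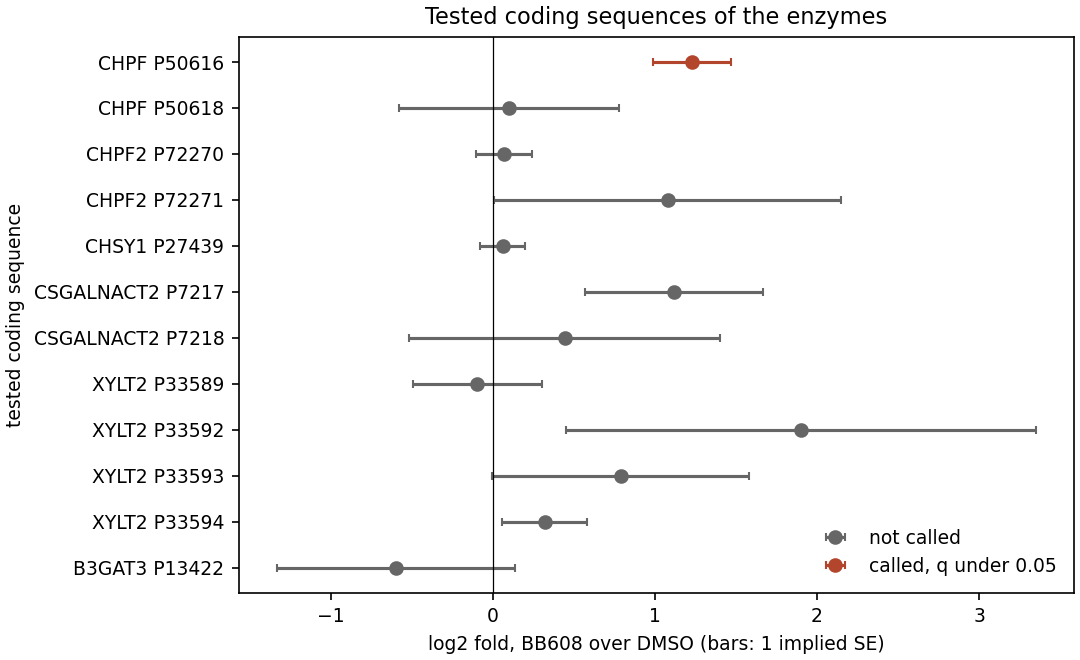
Log2 fold of BB608 over DMSO (x axis) for the 12 tested coding sequences of the enzymes (y axis), with bars of 1 implied SE. CHPF P50616 at 1.23 is the called one, drawn in red, and the bars of the others run from 0.14 for CHSY1 to 1.45 for XYLT2 P33592.

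XYLT2 was the detected xylosyltransferase. Its 6 coding sequences summed to 11.6 FPKM in BB608 cells and 8.95 FPKM in DMSO cells, a log2 fold of 0.37. The most abundant sequence, P33594, was at 5.32 FPKM in BB608 cells and 4.26 FPKM in DMSO cells, a log2 fold of 0.32 (implied SE 0.26) in the authors' deposited table. The next, P33589, went the other way, with 2.75 FPKM in BB608 cells and 2.94 FPKM in DMSO cells. A minor sequence, P33592, had the largest fold of any tested sequence of these enzymes, 1.90, with an implied SE of 1.45 and a Cuffdiff p of 0.251 in that deposited table. XYLT1 was listed at 0 FPKM in DMSO cells and below 0.001 FPKM in BB608 cells. Among the enzymes with a tested sequence, B3GAT3 alone had a lower gene sum with the compound, at 2.14 FPKM in BB608 cells and 2.31 FPKM in DMSO cells. Its tested sequence, P13422, had a log2 fold of -0.60 (implied SE 0.74) in the authors' deposited table.

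In all, 12 of the 29 coding sequences were tested by the authors, from 6 of the 9 enzymes. One of the 12, CHPF P50616, rose past the q threshold and none fell past it, against 0.142% of all 34474 tested coding sequences that rose and 0.354% called in either direction. By gene name 1 of the 6 enzymes was called, against 1.06% of the 11429 gene names with a tested sequence. Nothing is read from these shares, because that call chose the gene. The other 11 sequences had a Cuffdiff q of 0.997 and an unadjusted p above 0.05 in the authors' deposited table. Of the 12 sequences, 10 were higher and 2 lower in BB608 cells. By gene sum 5 of the 6 tested enzymes were higher in BB608 cells, against 57.6% of 10859 kept genes. A gene was kept where a coding sequence was tested and the gene sum reached 1 FPKM in either group. Left out were genes with a sequence marked as failed, with no signal in a group, or with a comma in the name. The enzymes' median log2 fold was 0.30, against 0.03 over all kept genes. These counts and this median include CHPF, which was selected on its fold, so nothing is read from them either.

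The order of the gene sums was the same in both groups for the 7 enzymes above 0.001 FPKM, running from CHSY1 through XYLT2, CHPF2, CSGALNACT2, CHPF and B3GAT3 to CHSY3. XYLT2 and CHPF2 were close to each other in both groups, and no spread over libraries is available to separate neighbours. Against all kept genes CHSY1 lay at the 59.1 percentile of mean level, CHPF at 23.2 and B3GAT3 at 13.0. A gene sum fold as high as that of CHPF or higher was seen in 187 kept genes, or 1.72%, and one as high as that of CSGALNACT2 in 229, or 2.11%. All 9 enzymes summed to 52.5 FPKM in BB608 cells and 42.3 FPKM in DMSO cells. Without CHPF and CSGALNACT2 the remaining 7 summed to 41.2 FPKM in BB608 cells and 36.4 FPKM in DMSO cells, a log2 fold of 0.18.

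**Figure D3:**
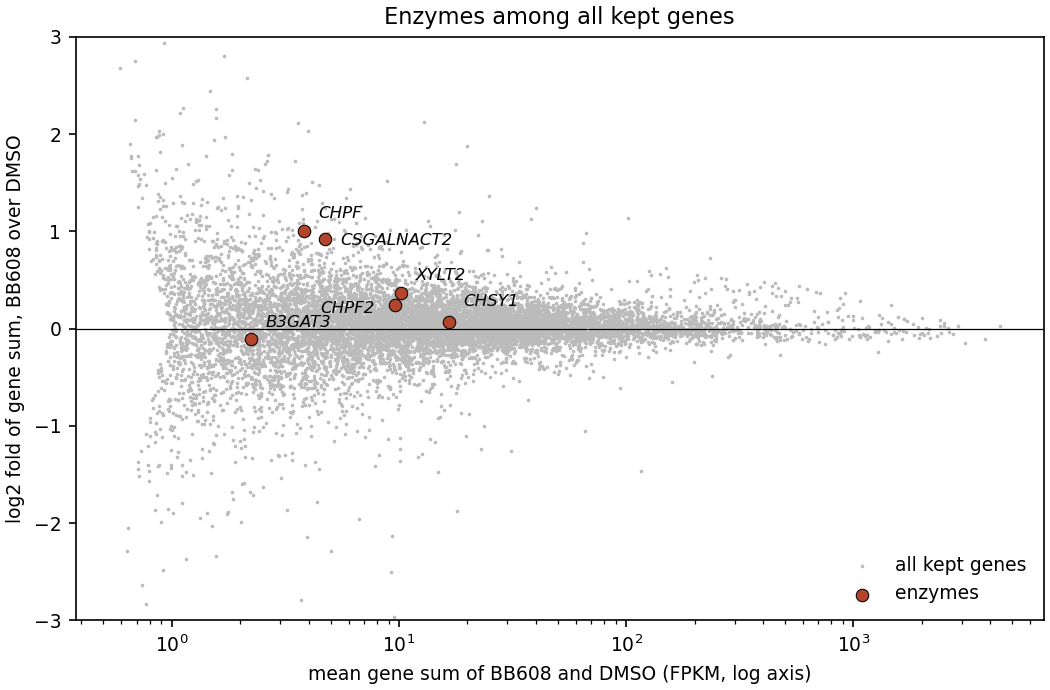
Log2 fold of the gene sum (y axis) against the mean gene sum of both groups in FPKM (x axis, log scale) for all kept genes (grey) and the 6 kept enzymes (red). Folds as high as that of CHPF at 1.01 or CSGALNACT2 at 0.92 were seen in 1.72% and 2.11% of kept genes of any level. Folds scatter widely at their level, and no share was taken there. CHSY1 at 0.06 lies near the median of all kept genes, 0.03. Not drawn are 29 genes beyond 3 log2.

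The 5 kept genes nearest CHPF in gene sum fold, out of those with at least 2 coding sequences above 1 FPKM in either group, were PDSS2, SAMD1, EML2, GATM and CRLF3. Their gene sums each had a log2 fold of 1.01, and none had a called sequence. The likeness rests on a single ratio between 2 pooled groups. Taken by the most abundant tested sequence, the fold was -0.38 for PDSS2 and 0.30 for CRLF3.

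The rest of the linker pathway held no call. It comprises B4GALT7 and B3GALT6, which add the galactoses, FAM20B, the kinase that phosphorylates the xylose, and ACPL2, now named PXYLP1, the phosphatase that removes the phosphate. FAM20B was at 20.0 FPKM in BB608 cells and 22.2 FPKM in DMSO cells by gene sum. B3GALT6 was at 5.70 FPKM in BB608 cells and 4.98 FPKM in DMSO cells, a log2 fold of 0.19 (implied SE 0.12) in the authors' deposited table. ACPL2 was at 2.60 FPKM in BB608 cells and 3.00 FPKM in DMSO cells. Of the 14 tested sequences of the 7 linker genes, XYLT2 and B3GAT3 included, none had an unadjusted Cuffdiff p under 0.05. The median log2 fold of their 6 kept gene sums was -0.04.

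Of 10 sulfation and epimerization genes 8 were tested and none was called. DSE, the epimerase that turns chondroitin into dermatan sulfate, was highest at 16.0 FPKM in BB608 cells and 17.6 FPKM in DMSO cells. CHST3, a chondroitin 6-O-sulfotransferase, was at 1.06 FPKM in BB608 cells and 0.357 FPKM in DMSO cells. Its log2 fold was 1.58 (implied SE 0.76), with a q-value of 0.997 and a Cuffdiff p of 0.136 in the authors' deposited table. UST, a uronyl 2-O-sulfotransferase, was at 0.809 FPKM in BB608 cells and 1.91 FPKM in DMSO cells. The UST log2 fold was -1.24 (implied SE 0.69), with a q-value of 0.997 and a Cuffdiff p of 0.134 there. The implied SEs of CHST3 and UST are smaller than these p-values would give, since the same median ratio served all sequences. Of the 14 tested sequences of these 8 genes 1 had an unadjusted Cuffdiff p under 0.05, a share of 7.14%, against 3.31% over all tested sequences. That sequence belongs to CHST11, a chondroitin 4-O-sulfotransferase named after its value was seen, and was at 4.08 FPKM in BB608 cells and 2.30 FPKM in DMSO cells with a q-value of 0.238 in the authors' deposited table. Another CHST11 sequence, P16938, was at 1.00 FPKM in BB608 cells and 3.01 FPKM in DMSO cells, and the gene sum was 14.3 FPKM in BB608 cells and 12.2 FPKM in DMSO cells, a log2 fold of 0.23. The median log2 fold of the 8 genes was 0.02.

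Genes for sugar nucleotides, the sulfate donor and their Golgi carriers were all 11 tested, with no call. UAP1, which makes UDP-N-acetylglucosamine, was at 41.3 FPKM in BB608 cells and 45.8 FPKM in DMSO cells. PAPSS2, a synthase of the sulfate donor, was at 1.01 FPKM in BB608 cells and 0.327 FPKM in DMSO cells, and its tested sequence had a log2 fold of 1.24 (implied SE 1.23) in the authors' deposited table. SLC35D2, a nucleotide sugar transporter, was at 3.59 FPKM in BB608 cells and 5.46 FPKM in DMSO cells. Of 39 tested sequences 3, or 7.69%, had an unadjusted Cuffdiff p under 0.05, against 3.31% over all tested sequences. The 1 of them higher in BB608 cells belongs to SLC35B3, a carrier of the sulfate donor named after its value was seen. Over the 11 gene sums the median log2 fold was -0.10.

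Heparan sulfate synthesis, which branches from the same linker, had 12 of 14 genes tested and no call, and no unadjusted Cuffdiff p under 0.05 among 31 sequences. EXT1, a heparan sulfate polymerase, was at 62.8 FPKM in BB608 cells and 68.9 FPKM in DMSO cells. GLCE, the glucuronyl epimerase, was at 2.37 FPKM in BB608 cells and 1.34 FPKM in DMSO cells. NDST2, an N-deacetylase and N-sulfotransferase, was at 3.14 FPKM in BB608 cells and 4.64 FPKM in DMSO cells by gene sum, though its most abundant sequence had a log2 fold of 0.02 in the authors' deposited table. The median log2 fold was -0.02. Lysosomal and other degrading enzymes had 8 of 11 genes tested, no call, no unadjusted p under 0.05 among 29 sequences and a median of -0.02. In that list GALNS, a sulfatase, was at 5.95 FPKM in BB608 cells and 4.06 FPKM in DMSO cells, and ARSB, another sulfatase, was at 1.75 FPKM in BB608 cells and 2.44 FPKM in DMSO cells.

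Core proteins that carry such chains had 8 of 20 genes tested, and 11 of the 20 stayed under 1 FPKM in both groups. APLP2, an amyloid precursor-like protein that can carry chondroitin sulfate, was highest at 305.7 FPKM in BB608 cells and 315.0 FPKM in DMSO cells. COL18A1, a collagen with glycosaminoglycan chains, was at 3.64 FPKM in BB608 cells and 1.17 FPKM in DMSO cells, with a log2 fold of 1.63 (implied SE 1.30) in the authors' deposited table. THBD, thrombomodulin, was at 1.83 FPKM in BB608 cells and 2.35 FPKM in DMSO cells, a log2 fold of -0.36 (implied SE 0.13) with a q of 0.751 and a Cuffdiff p of 0.00695 there. No sequence was called, and 5 of 20, or 25%, had an unadjusted Cuffdiff p under 0.05, against 3.31% over all tested sequences. Those of AGRN, GPC1 and SDC1 were higher and those of SDC4 and THBD lower in BB608 cells. Of these genes all but THBD were named after their values were seen. The gene sum of the syndecan SDC1 was 21.6 FPKM in BB608 cells and 14.7 FPKM in DMSO cells, and that of SDC4, another syndecan, was 70.6 FPKM in BB608 cells and 85.6 FPKM in DMSO cells. Both syndecans are membrane proteoglycans that carry mainly heparan sulfate. The median log2 fold was 0.09. Across the 70 listed genes other than the enzymes, 51 were tested and none was called. Of their 142 sequences 9, or 6.34%, had an unadjusted Cuffdiff p under 0.05, against the same 3.31%.

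**Figure D4:**
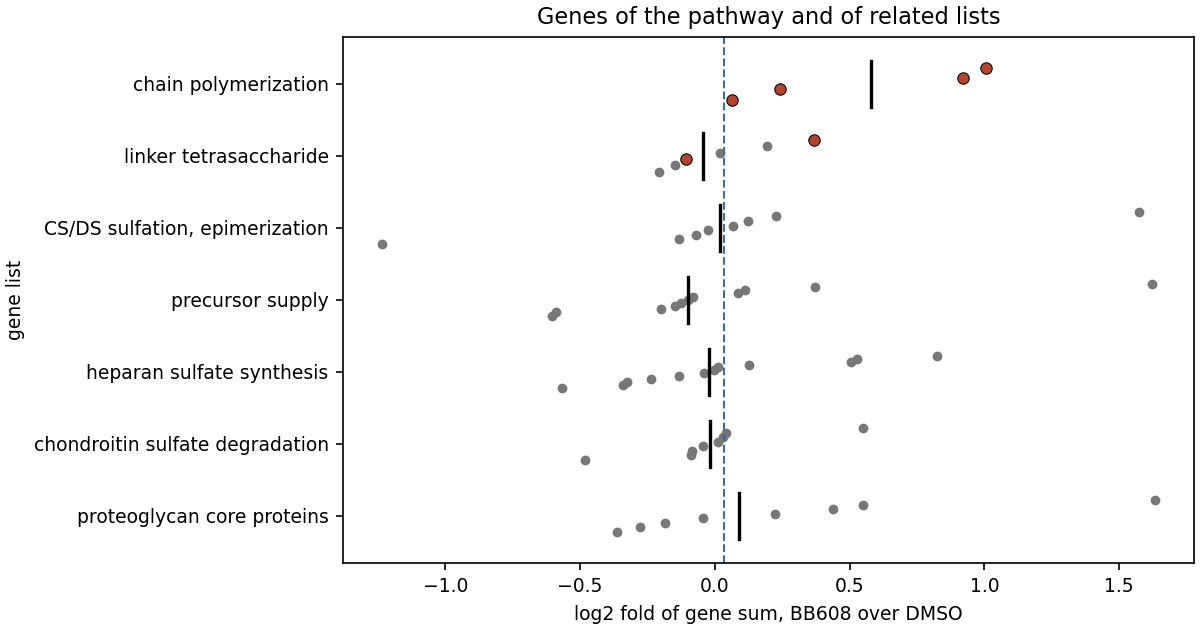
Log2 fold of the gene sum (x axis) for the kept genes of 7 lists (rows), with the enzymes in red, other genes in grey, the list median as a black bar and the median of all kept genes as a dashed line at 0.03. CS/DS stands for chondroitin and dermatan sulfate. The chain polymerization list has its 4 kept genes above 0 and a median of 0.58, and the other medians lie between -0.10 and 0.09. That list includes CHPF, which was selected on its fold. The list's other kept genes are CHSY1 at 0.06, CHPF2 at 0.24 and CSGALNACT2 at 0.92.

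All 8 squamous epithelial markers were tested, led by KRT5 at 2472 FPKM in BB608 cells and 2334 FPKM in DMSO cells. The 6 fibroblast markers each stayed under 1 FPKM in both groups and summed to 0.865 FPKM in BB608 cells and 1.01 FPKM in DMSO cells. Of the blood and endothelial markers CD68, at 20.3 FPKM in BB608 cells and 22.9 FPKM in DMSO cells, and CDH5, at 4.09 FPKM in BB608 cells and 3.82 FPKM in DMSO cells, were above 1 FPKM and neither was called. CD3E was listed at 0 FPKM in both groups.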

How the data were processed

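Reads were processed by the authors with TopHat2 2.0.11, Cufflinks 2.2.1 and Cuffdiff on build hg19, per the submitters' processing notes. No source used here names the annotation. The deposited FPKM values are pooled by the authors, with 1 per group, and the file headers call each group a subset without saying of what. Beside these, the authors' deposited table holds a p-value, a q-value, a test statistic, which is a score, and a log2 fold, with BB608 over DMSO. The q-value matched a Benjamini-Hochberg adjustment of the p-values over all 34474 tested sequences to within 5.23e-07.

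With no value per library, limma could not be run, and no test was made here. The implied SE used a median ratio of 1.74 (quartiles 1.65 and 1.79) over 34330 sequences. A sequence whose own ratio differs has an implied SE that is too small or too large for its p-value. Python 3.11.15, pandas 2.3.3 and scipy 1.17.1 were used. Depth is unknown.

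Members, the 7 pathway lists and marker lists were chosen with earlier results of these data known. Named were all members, each list's called, most abundant, highest-fold and lowest-fold genes of at least 1 FPKM, and the 5 genes nearest CHPF in fold. Some genes this rule takes are not reported here.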

Additional observations from a re-analysis of the deposited data

How the results depend on the processing

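No paired analysis was possible because replicate numbers do not reach the deposited values, which are pooled by group. Leaving out a replicate and limma with a replicate block were not run for that reason. The CHPF gene sum had a log2 fold of 1.01 as deposited, 0.79 with a pseudocount of 1 FPKM, 0.97 after centring on the median of kept genes, 0.94 after quantile normalization and 1.23 by its most abundant sequence or by sequences of at least 1 FPKM alone. With q adjusted over sequences whose mean reached 1 FPKM, 1 pathway gene was called, CHPF, at a q of 0.0125. With a floor of 5 FPKM on the mean, 0 were called, since P50616 is below that floor, and 4 sequences of the pathway lists had an unadjusted Cuffdiff p under 0.05. A pseudocount of 1 FPKM moved the fold of P50616 to 0.91. Of 185 settings over 31 gene sums, 179 stayed within 1 implied SE, that of the gene's most abundant tested sequence, and 6 moved further. That error ran from 0.12 for B3GALT6 to 1.40 for EML2, so a wide error alone can keep a fold within it. All 32 settings of list medians stayed within a margin. It was the median implied SE of a list's tested sequences divided by the square root of its number of kept genes. That margin takes genes as independent and is not the error of a median. The lists' medians carry no test. Without depth or values per library, an uncalled fold is not shown to be absent.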
